A study of Danio rerio with 4 samples.

Results

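Translation initiation factor genes of the zebrafish (strain AB) were compared between noc4l mutant and sibling heads at 5 days post-fertilization (dpf), in RNA and in ribosome footprints. Members were the genes of the Ribo-seq table whose symbol starts with eif1, eif2, eif3, eif4 or eif5, without the eif2ak stress kinases, joined to the RNA-seq table by gene ID. This gave 61 of 25196 gene IDs. The rule used symbols and no measured value, although it was chosen with earlier results of these data known. The mutants carry a small CRISPR/Cas9 deletion in the fourth exon of noc4l that leads to a premature stop, and their siblings served as controls. The product of noc4l acts in assembly of the small (40S) ribosomal subunit. The labels give the sibling genotype as WT, and siblings of a mutant cross can include heterozygotes. Each of the 4 libraries (mutant RNA-seq, sibling RNA-seq, mutant Ribo-seq, sibling Ribo-seq) was made from pooled head tissue, with heads collected apart for the 2 assays, and no source used here states how many heads went into a pool. Each genotype had 1 library per assay. No replicate check and no test was therefore possible, and every interval below covers counting error at 95% and not the spread between fish.

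Initiation brings a ribosome to the start codon. eIF2 carries the initiator tRNA to the 40S subunit, eIF1, eIF1A and eIF3 hold the subunit open for scanning, and eIF4E, eIF4G and eIF4A bind and unwind the capped end of the mRNA. eIF5 triggers GTP hydrolysis on eIF2 at the start codon, eIF5B joins the large subunit, and eIF2B recharges eIF2 with GTP. The 4E-BP proteins hold eIF4E away from eIF4G. Many of these genes have paralogues from the genome duplication of teleost fish, and subunits of eIF2, eIF2B and eIF3 are needed in set ratios to build their complexes.

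RNA-seq counts summed to 17394982 in mutant and 15018459 in sibling heads, and footprint counts to 19823803 in mutant and 12180999 in sibling heads. The targeted gene noc4l had 45 RNA counts in mutant and 443 in sibling heads, and 15 footprint counts in mutant and 93 in sibling heads. Of 8 head markers, none was at 0 counts, and 1, the lens crystallin gene cryaa, was at least 2-fold lower in mutant heads in both assays. The 3 pancreas, 2 liver and 2 intestine markers were each present, and each was at least 2-fold lower in the mutant library of both assays. The 2 skeletal muscle markers went opposite ways in the assays, with log2 ratios of 0.43 (mylpfa) and 0.42 (ckma) in RNA, -0.37 and -0.46 in footprints, and -0.81 and -0.88 in translation efficiency. The summed RNA of the 3 other organs in mutant heads was 120 CPM (counts scaled to a library of equal size) for pancreas, 151 for liver and 176 for intestine, against 2697, 3259 and 1612 CPM in sibling heads. The summed footprints of the same markers were lower, at 6.54, 9.65 and 16.7 CPM in mutant and 201, 444 and 65.4 CPM in sibling heads. The part of these tissue differences in the values below was not tested. A group of 3 loci held 18.1% of mutant and 49.1% of sibling footprint counts. Counts were therefore scaled by TMM, which sets the bulk of genes to a ratio near 1. Scaling by total counts instead adds 0.71 to every log2 ratio of footprints, 0.08 to those of RNA and 0.63 to those of translation efficiency, so that a footprint ratio less than 0.71 below 0, or a translation efficiency ratio less than 0.63 below 0, changes sign. The order of genes within an assay is the same under both. The paper reports lower polysome levels and less nascent protein synthesis in mutant embryos. Neither scaling can show such a change in the total. Footprint and translation efficiency ratios are thus relative to other genes, and a ratio above 0 need not mean more ribosomes on an mRNA.

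Initiation factor mRNAs stood close to the bulk of genes, while their footprints leaned to the mutant side relative to that bulk. A gene counted as measured with 100 or more counts in the 2 genotypes together, in each assay for translation efficiency, which is footprint CPM divided by RNA CPM. This left 59 members in RNA, 60 in footprints and 59 in translation efficiency. The median log2 ratio of mutant to sibling was 0.06 in RNA (all measured genes 0.01), 0.27 in footprints (all genes 0.02) and 0.15 in translation efficiency (all genes -0.01). Ratios were above 0 for 34 of 59 members in RNA, 49 of 60 in footprints and 38 of 59 in translation efficiency. Of all measured genes, 50.9% were above 0 in RNA, 52.9% in footprints and 48.7% in translation efficiency. Under total counts the ratios were above 0 for 60 of 60 members in footprints and 57 of 59 in translation efficiency. The medians of all measured genes were then 0.74 and 0.62, so most genes were above 0 too. The median member stood at percentile 55.0 of all measured genes by its RNA ratio, 76.4 by its footprint ratio and 64.9 by its translation efficiency ratio.

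The changes were small gene by gene. No member reached a 2-fold difference in RNA, where 3.14% of measured genes were higher and 6.16% lower in mutant heads, nor in footprints, where 1.89% were higher and 3.61% lower. In translation efficiency 2 members were at least 2-fold higher, eif3f and eif4e2, and 0 lower, against 3.55% of measured genes higher and 3.18% lower. At a ratio of 1.5 or more, 4 members were higher and 2 lower in RNA (9.83% and 12.6% of measured genes), 7 higher and 0 lower in footprints (7.60% and 8.38%), and 10 higher and 2 lower in translation efficiency (10.7% and 10.9%). By counting error alone, the interval lay above 0 for 25 and below 0 for 18 of 59 members in RNA (28.3% and 27.9% of measured genes). In footprints it lay above 0 for 35 and below 0 for 4 of 60 members (22.8% and 20.1% of measured genes), and in translation efficiency above 0 for 27 and below 0 for 12 of 59 (20.7% and 21.6%). By this interval rule the share of members lower in RNA was close to that of all genes. By size it was smaller, with 2 of 59 members at a ratio of 1.5 or more against 12.6% of measured genes. Members had more counts than most genes, with a median interval half-width of 0.10 in RNA against 0.24 for all measured genes, and of 0.17 in footprints against 0.29. Summed over the family, initiation factor RNA made up 0.981% of mutant and 0.924% of sibling counts. Scaled by TMM, this RNA sum had a log2 ratio of 0.005 (-0.006 to 0.015). Footprints on the family made up 0.775% of mutant and 0.644% of sibling counts once the 3 abundant loci were left out (0.634% and 0.328% with them). The measures cannot tell fewer cells of a type from less RNA per cell, since whole heads were sampled.

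**Figure D1:**
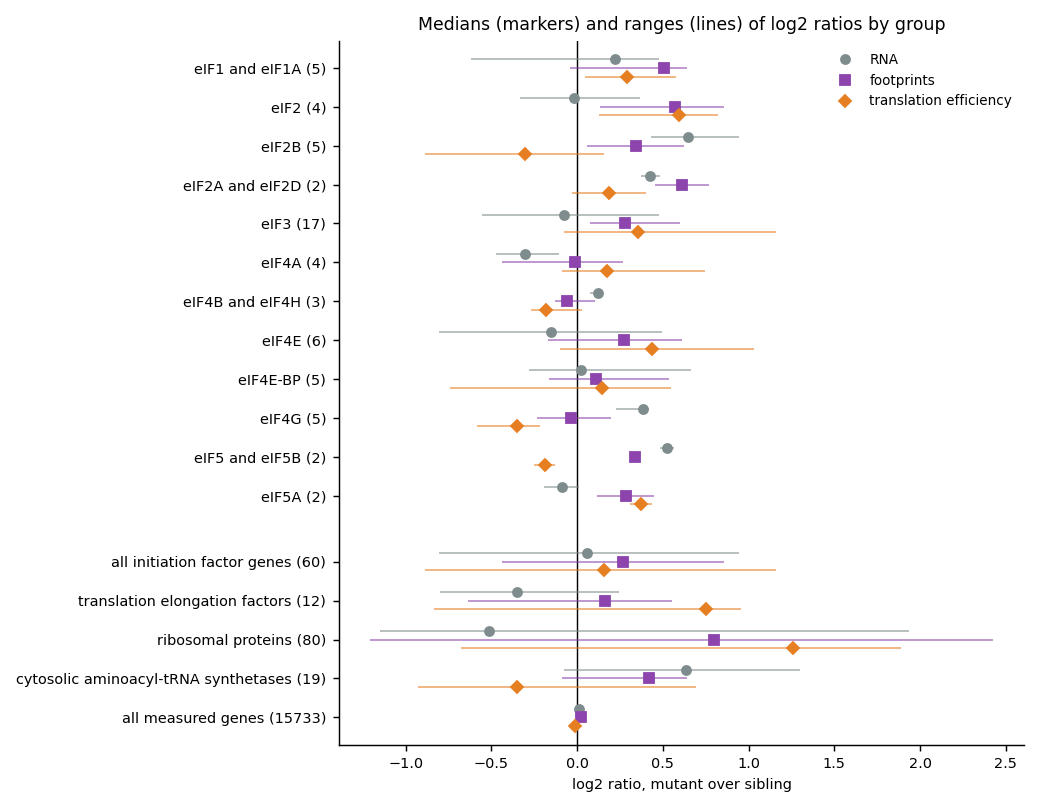
Median log2 ratio of mutant to sibling (x axis; circles RNA, squares footprints, diamonds translation efficiency) with the lowest to highest gene as a line, for 12 groups of initiation factor genes, for all of them, for 3 comparison lists and, as medians alone, for all measured genes. Numbers in brackets are genes measured in footprints. eIF2 and eIF3 have RNA medians near 0 (-0.02 and -0.08) and footprint medians of 0.57 and 0.28, while eIF2B and eIF4G have RNA medians (0.65 and 0.39) above their footprint medians (0.35 and -0.04), an order that turns round under total counts (0.73 and 1.06 for eIF2B, 0.47 and 0.68 for eIF4G). Under total counts per library all footprint medians move up by 0.71 and all translation efficiency medians by 0.63, so those below 0 change sign.

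The order of the groups differed between RNA and translation efficiency. In RNA the highest medians were those of eIF2B (0.65), eIF5 with eIF5B (0.53), eIF2A with eIF2D (0.43) and eIF4G (0.39), and the lowest those of eIF4A (-0.31) and eIF4E (-0.15). In translation efficiency eIF2 (0.59), eIF4E (0.44), eIF5A (0.37) and eIF3 (0.35) were highest. Lowest were eIF4G (-0.35, 0.28 under total counts), eIF2B (-0.30, 0.33 under total counts) and eIF5 with eIF5B (-0.19, 0.44 under total counts). The eIF4E median rests in part on low counts, with 60, 41 and 46 footprint counts in sibling heads for eif4ea, eif4eb and eif4e2. Because the RNA count is the denominator of translation efficiency, opposite signs of the RNA and translation efficiency ratios are in part built in. The footprint ratio does not share that term. In footprints eIF2A with eIF2D (0.61), eIF2 (0.57) and eIF1 with eIF1A (0.51) stood highest. Lowest were eIF4B with eIF4H (-0.06, 0.66 under total counts), eIF4G (-0.04, 0.68 under total counts) and eIF4A (-0.01, 0.70 under total counts). Medians of few genes can part from the ratio of summed counts. Summed, eIF4E stood at 0.08 in RNA (0.01 to 0.14) and 0.18 in translation efficiency (0.05 to 0.30). eIF4A stood at 0.13 in footprints (0.09 to 0.17) and 0.44 in translation efficiency (0.39 to 0.49). The translation efficiency sums of eIF2 (0.63), eIF3 (0.44), eIF2B (-0.30) and eIF4G (-0.34) had the signs of their medians.

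**Figure D2:**
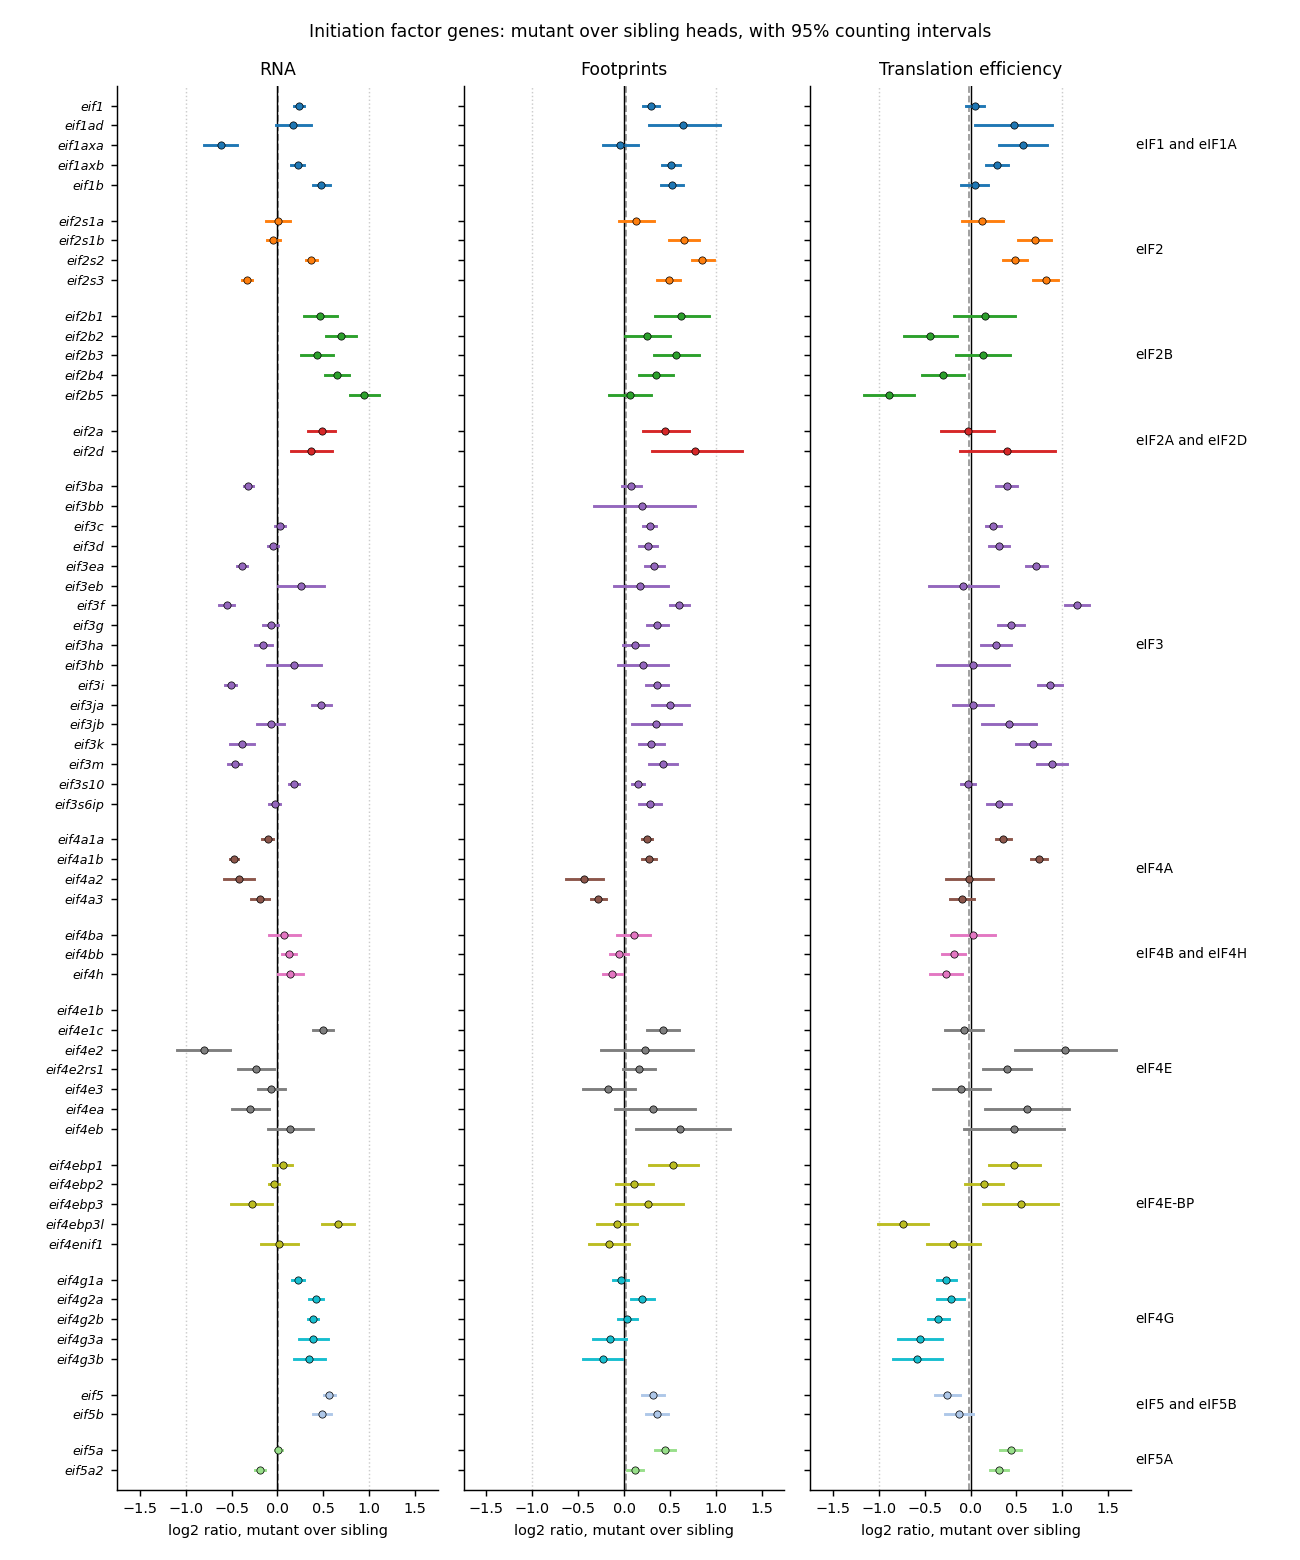
Log2 ratio of mutant to sibling for each initiation factor gene (rows, by complex) in RNA (left), footprints (middle) and translation efficiency (right). Points are ratios, bars 95% counting intervals, the dashed line the median of all measured genes, and dotted lines a 2-fold difference. eif3f and eif4e2 lie past 2-fold in translation efficiency, and the 17 eIF3 genes sit in a narrow band in footprints, 0.08 to 0.60, beside an RNA range of -0.56 to 0.48 (16 genes measured).

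eIF1 and eIF1A bind the 40S subunit and guard the choice of start codon. eif1, the most abundant gene of this group, had 6631 RNA counts in mutant and 4580 in sibling heads (285 and 228 FPKM) and 4972 footprint counts in mutant and 1521 in sibling heads (570 and 220 TPM). Its log2 ratio was 0.24 in RNA (0.19 to 0.29), 0.29 in footprints (0.21 to 0.38) and 0.05 in translation efficiency (-0.05 to 0.15). RNA and footprints of eif1 thus shifted by about the same amount. Its paralogue eif1b had 2413 RNA counts in mutant and 1412 in sibling heads, and 2769 footprint counts in mutant and 722 in sibling heads. The log2 ratio of eif1b was 0.48 in RNA (0.38 to 0.57) and 0.52 in footprints (0.41 to 0.64).

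The pair of eIF1A genes split in RNA. eif1axa had 454 RNA counts in mutant and 568 in sibling heads (log2 ratio -0.62, -0.80 to -0.44), and 791 footprint counts in mutant and 305 in sibling heads (-0.04, -0.23 to 0.15). Its RNA was among the 2 members more than 1.5-fold lower in mutant heads, while its footprints did not leave 0 by counting error. eif1axb, the more abundant gene, had log2 ratios of 0.22 in RNA (0.15 to 0.29) and 0.51 in footprints (0.41 to 0.61). eif1ad, an eIF1A-domain protein tied to 40S maturation in human cells, had 289 footprint counts in mutant and 69 in sibling heads, the highest footprint ratio of the group (0.64, with an interval above 0).

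eIF2 is a trimer. Its alpha subunit is the target of the stress kinases, its beta subunit binds eIF5 and eIF2B, and its gamma subunit binds GTP and the initiator tRNA. The beta gene eif2s2 had 5380 RNA counts in mutant and 3397 in sibling heads (240 and 175 FPKM), and 3317 footprint counts in mutant and 687 in sibling heads (139 and 36.4 TPM). Its log2 ratio was 0.37 in RNA (0.31 to 0.43) and 0.86 in footprints (0.74 to 0.98), the highest footprint ratio of all members measured. The gamma gene eif2s3 had 5217 RNA counts in mutant and 5354 in sibling heads, and 2460 footprint counts in mutant and 657 in sibling heads. Its RNA was on the lower side in mutant heads (-0.33, -0.39 to -0.28) and its footprints on the higher side (0.49, 0.36 to 0.62), a translation efficiency ratio of 0.82 (0.68 to 0.96).

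The alpha subunit has 2 genes, and they parted in footprints. eif2s1b had 3319 RNA counts in mutant and 2792 in sibling heads, and 1593 footprint counts in mutant and 379 in sibling heads. eif2s1a had 1099 RNA counts in mutant and 891 in sibling heads, and 904 footprint counts in mutant and 308 in sibling heads. Their RNA ratios were both near 0 (-0.04 for eif2s1b and 0.01 for eif2s1a). In footprints eif2s1b stood at 0.65 (0.49 to 0.82) and eif2s1a at 0.14 (-0.05 to 0.33), so that eif2s1a took 36.2% of the pair's footprints in mutant and 44.8% in sibling heads, beside 24.9% of the pair's RNA in mutant and 24.2% in sibling heads. With paralogues summed, the 3 eIF2 subunits lay within a 1.49-fold range in mutant RNA and a 1.10-fold range in sibling RNA, and within 1.49-fold in mutant and 1.26-fold in sibling footprints. beta stood above the other subunits in both mutant libraries.

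eIF2B is the exchange factor that returns GTP to eIF2. Its epsilon subunit (eif2b5) holds the catalytic site, gamma (eif2b3) works beside it, and alpha, beta and delta (eif2b1, eif2b2, eif2b4) form the regulatory part. RNA ratios of all 5 genes had intervals above 0 (28.3% of all measured genes), with log2 ratios of 0.43 to 0.95. Of the 5, 3 were more than 1.5-fold higher (9.83% of all measured genes). eif2b5 was the highest RNA ratio of all members, with 1149 counts in mutant and 486 in sibling heads (36.1 and 17.7 FPKM, log2 ratio 0.95, 0.79 to 1.10). Its footprints numbered 599 in mutant and 215 in sibling heads (0.06, -0.16 to 0.29). This gave the lowest translation efficiency ratio of the family (-0.89, -1.16 to -0.61). That ratio was -0.26 under total counts and 0.04 under deposited FPKM and TPM. eif2b2 had 877 RNA counts in mutant and 443 in sibling heads (0.69, 0.52 to 0.86), and 594 footprint counts in mutant and 187 in sibling heads (0.25, 0.01 to 0.50). eif2b4, with 1385 RNA counts in mutant and 720 in sibling heads, had log2 ratios of 0.65 in RNA and 0.35 in footprints (0.16 to 0.54).

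The other eIF2B genes had footprints that went with their RNA. eif2b1 had 693 RNA counts in mutant and 409 in sibling heads, and 502 footprint counts in mutant and 122 in sibling heads, with log2 ratios of 0.47 in RNA (0.29 to 0.65) and 0.62 in footprints (0.34 to 0.92). eif2b3 had ratios of 0.43 in RNA and 0.56 in footprints. Within the complex, epsilon was the subunit with the lowest footprint level per length in both genotypes (13.8 TPM in mutant and 6.24 in sibling heads). It stood at 0.603 of the median eIF2B subunit in mutant and 0.852 in sibling footprints, and at 1.00 of that median in mutant and 0.793 in sibling RNA. The RNA-seq table also holds an assembled locus annotated as eIF2B epsilon, looked up after the values were seen, with 93 counts in mutant and 67 in sibling heads (log2 ratio 0.18, -0.29 to 0.65). eIF2A and eIF2D act outside the eIF2 trimer, and eIF2D is related to the DENR and MCTS1 proteins that recycle the 40S subunit. eif2a had 1031 RNA counts in mutant and 601 in sibling heads (0.48, 0.34 to 0.63), and 596 footprint counts in mutant and 163 in sibling heads (0.45, 0.20 to 0.71). eif2d had 430 RNA counts in mutant and 271 in sibling heads (0.37, 0.15 to 0.60), and 202 footprint counts in mutant and 44 in sibling heads (0.77, 0.31 to 1.29).

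eIF3, the largest factor, is a scaffold of 13 subunits on the 40S subunit, encoded here by 17 genes. eIF3 RNA ratios ranged from -0.56 to 0.48 over 16 measured genes, with intervals above 0 for 3 and below 0 for 7 (28.3% and 27.9% of all measured genes). Footprint ratios were above 0 for 17 of 17 genes (52.9% of all measured genes) and ranged from 0.08 to 0.60. Their intervals lay above 0 for 12 (22.8% of all measured genes). Over the 16 genes measured in both assays, the standard deviation of the log2 ratios was 0.30 in RNA and 0.14 in footprints. The genes thus stood further apart in RNA, although the median half-width of the counting intervals was 0.07 in RNA and 0.12 in footprints.

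eif3f (ENSDARG00000077533), an MPN-domain subunit of the eIF3 octamer, was the member with the highest translation efficiency ratio. It had 2273 RNA counts in mutant and 2725 in sibling heads (146 and 203 FPKM), and 3779 footprint counts in mutant and 933 in sibling heads (183 and 57.1 TPM). The log2 ratio of eif3f was -0.56 in RNA (-0.64 to -0.47), 0.60 in footprints (0.50 to 0.71) and 1.16 in translation efficiency (1.03 to 1.29). Its footprint level per length was the highest of the 13 subunits in both Ribo-seq libraries. eif3ea, the eIF3 gene with the most RNA per length, had 5731 RNA counts in mutant and 6108 in sibling heads (207 and 257 FPKM), and 3108 footprint counts in mutant and 925 in sibling heads. Its log2 ratio was -0.39 in RNA (-0.44 to -0.33) and 0.33 in footprints (0.23 to 0.44). eif3m, eif3i and eif3k had the same form, with RNA ratios of -0.47, -0.51 and -0.39 and footprint ratios of 0.43, 0.36 and 0.30. Their translation efficiency ratios were 0.89 (0.73 to 1.06), 0.87 (0.74 to 1.00) and 0.68 (0.50 to 0.87).

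A further 7 eIF3 genes had translation efficiency ratios of 0.25 (eif3c) to 0.44 (eif3g), each with an interval above 0 (20.7% of all measured genes). The intervals of 4 others held 0 (eif3s10, eif3ja, eif3hb and eif3eb). The median half-width of these intervals was 0.14 for eIF3 genes against 0.36 for all measured genes, so that smaller ratios leave 0. eif3s10, the gene of the large subunit a, had 7438 RNA counts in mutant and 5357 in sibling heads, and 8503 footprint counts in mutant and 2867 in sibling heads, with ratios of 0.18 in RNA (0.13 to 0.23) and 0.15 in footprints (0.09 to 0.21). eif3ja, for the loosely bound subunit j, had the highest RNA ratio of the complex (0.48, 0.38 to 0.58) and a footprint ratio of 0.50 (0.31 to 0.70). eif3eb, the minor paralogue of eif3ea, had the lowest translation efficiency ratio (-0.08, -0.45 to 0.30), with 322 RNA counts in mutant and 220 in sibling heads and 399 footprint counts in mutant and 132 in sibling heads. eif3bb had 51 RNA counts in mutant and 30 in sibling heads, under the minimum, and 117 footprint counts in mutant and 38 in sibling heads.

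Levels of eIF3 subunits per gene length were closer to each other in mutant than in sibling RNA. With paralogues summed, the standard deviation of the log2 level over the 13 subunits was 0.47 in mutant and 0.62 in sibling RNA (FPKM), and 0.46 in mutant and 0.44 in sibling footprints (TPM). Subunits e, i, f and m, picked after their values were seen and above the eIF3 median in sibling RNA at 2.06, 1.68, 1.58 and 1.49 times that median, stood at 1.63, 1.21, 1.10 and 1.10 times the median in mutant RNA. Subunit d changed place little, at 1.54 times the median in mutant and 1.56 times in sibling RNA. Subunit k stood further below the median in mutant RNA, at 0.504 times, than in sibling RNA, at 0.645 times. From highest to lowest, RNA levels spanned 3.24-fold in mutant (217.9 FPKM for e to 67.3 for k) and 3.66-fold in sibling heads (265 for e to 72.4 for j). Footprint levels spanned 3.10-fold in mutant (183 TPM for f to 59.1 for m) and 2.74-fold in sibling heads (57.1 for f to 20.8 for m). The lengths behind these values are the authors' and can differ between libraries.

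**Figure D3:**
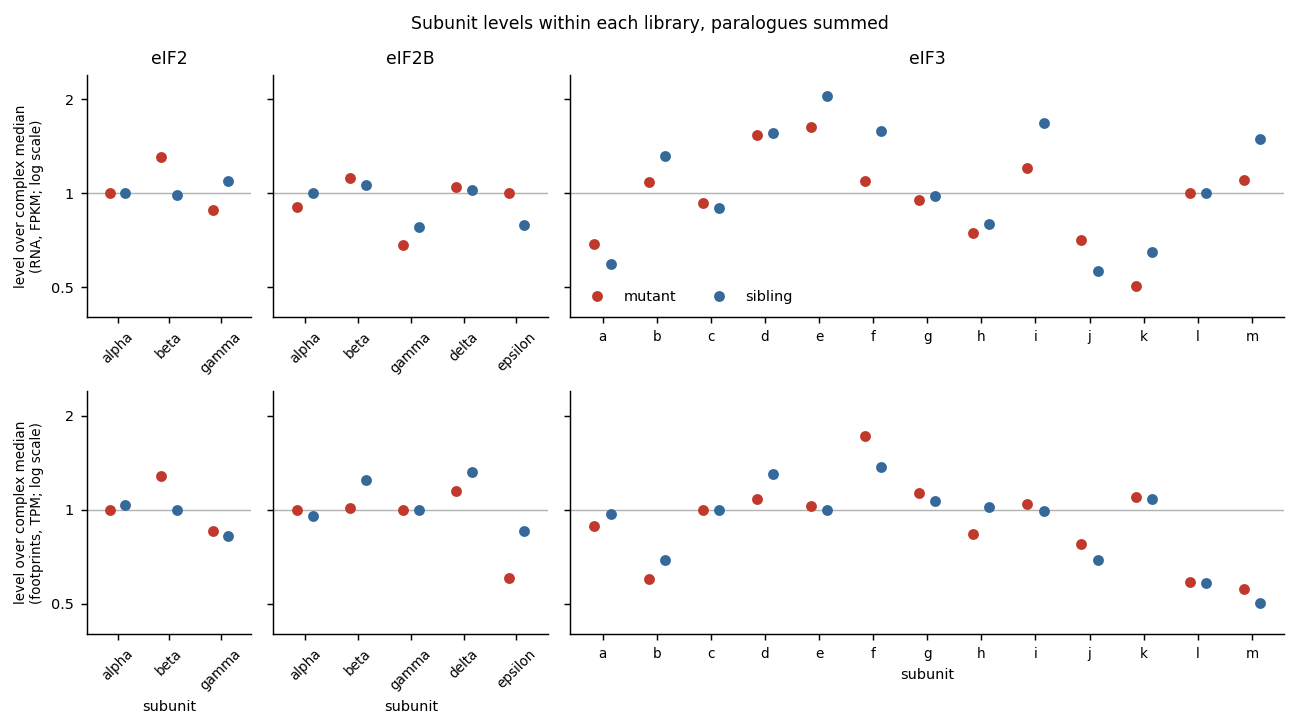
Level of each subunit of eIF2, eIF2B and eIF3 divided by the median subunit of its complex in the same library (y axis, log scale), in RNA (FPKM, top) and footprints (TPM, bottom), for mutant (red) and sibling heads (blue), with paralogues of a subunit summed. In RNA, eIF3 subunits e, f, i and m lie nearer to the median in mutant heads, while k lies further from it. In footprints eIF2B epsilon lies at 0.603 of its complex median in mutant and 0.852 in sibling heads.

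The cap complex showed no common shift. eIF4A is the helicase that unwinds the leader of the mRNA. All 4 genes of the group had RNA intervals below 0 under TMM (27.9% of all measured genes), with ratios of -0.47 to -0.11. Total counts add 0.08 to RNA ratios, and the eif4a1a interval (-0.16 to -0.05) would then hold 0. eif4a1b had 6563 RNA counts in mutant and 7433 in sibling heads (168 and 221 FPKM), and 5921 footprint counts in mutant and 1840 in sibling heads (202 and 79.1 TPM). Its log2 ratio was -0.47 in RNA (-0.52 to -0.43), 0.27 in footprints (0.19 to 0.35) and 0.74 in translation efficiency (0.65 to 0.83). eif4a1a, with 10875 footprint counts in mutant and 3422 in sibling heads the member with the most footprints, had ratios of -0.11 in RNA and 0.25 in footprints (0.20 to 0.31). eif4a2 and eif4a3 were on the lower side in both assays. eif4a3, a core part of the exon junction complex rather than of initiation, had 1744 RNA counts in mutant and 1621 in sibling heads (-0.19, -0.29 to -0.09), and 3455 footprint counts in mutant and 1571 in sibling heads (-0.28, -0.37 to -0.19, above 0 under total counts). eif4a2 had the lowest footprint ratio of the family (-0.44, -0.63 to -0.23, 610 counts in mutant and 309 in sibling heads), also above 0 under total counts.

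eIF4B and eIF4H stimulate the helicase, and their 3 genes stayed within 0.14 of 0 in RNA and in footprints under TMM. eif4bb, the most abundant in RNA, had 3292 RNA counts in mutant and 2463 in sibling heads, and 2880 footprint counts in mutant and 1123 in sibling heads (footprint ratio -0.06, -0.16 to 0.04). eif4h had 1035 RNA counts in mutant and 767 in sibling heads, and 2496 footprint counts in mutant and 1023 in sibling heads, with a translation efficiency ratio of -0.27 (-0.44 to -0.10, above 0 under total counts). eif4ba had the highest translation efficiency ratio of the 3 (0.03, -0.21 to 0.27), with 657 RNA counts in mutant and 508 in sibling heads and 1002 footprint counts in mutant and 349 in sibling heads. eIF4G bridges eIF4E, eIF4A and eIF3. Its 5 genes had RNA intervals above 0 (0.23 to 0.42) and translation efficiency intervals below 0 (-0.58 to -0.22, each above 0 under total counts). Of all measured genes, 28.3% had RNA intervals above 0 and 21.6% translation efficiency intervals below 0.

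eif4g2b, one of a pair of genes for the eIF4G2 type that lacks the eIF4E site, had 7204 RNA counts in mutant and 4498 in sibling heads (134 and 94.2 FPKM), and 2771 footprint counts in mutant and 1014 in sibling heads (54.3 and 25.7 TPM). Its log2 ratio was 0.39 in RNA (0.33 to 0.44) and 0.03 in footprints (-0.07 to 0.14). eif4g2a, with 4045 RNA counts in mutant and 2468 in sibling heads and 2165 footprint counts in mutant and 706 in sibling heads, had the highest footprint ratio of the group (0.20, 0.08 to 0.33). eif4g3b had 747 RNA counts in mutant and 478 in sibling heads, and 595 footprint counts in mutant and 262 in sibling heads, and the lowest (-0.23, -0.44 to -0.02, above 0 under total counts). The eIF4G genes were alike in RNA, where they spanned 0.19 log2 units, and less so in footprints, where they spanned 0.43. Counting error was also larger in footprints, with a median interval half-width of 0.12 against 0.07 in RNA.

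eIF4E binds the cap. eif4e1c, a cap-binding gene known from fish, had the most RNA of this group, with 1763 counts in mutant and 1019 in sibling heads (89.9 and 56.5 FPKM), and 1242 footprint counts in mutant and 347 in sibling heads. Its ratios were 0.50 in RNA (0.38 to 0.61), 0.42 in footprints (0.25 to 0.60) and -0.07 in translation efficiency (-0.28 to 0.13). eif4e2 (ENSDARG00000038585), known in mammals as the cap-binding repressor 4EHP, had 172 RNA counts in mutant and 245 in sibling heads (6.18 and 10.2 FPKM), and 145 footprint counts in mutant and 46 in sibling heads (8.35 and 3.34 TPM). Its log2 ratio was -0.80 in RNA (-1.09 to -0.52), the lowest of the members measured, 0.23 in footprints (-0.25 to 0.75) and 1.03 in translation efficiency (0.48 to 1.59). Its counts are few, and its translation efficiency ratio came just under 2-fold with 2 counts added instead of 0.5 (0.998) and under total counts without the 3 abundant loci (0.98). It was the minor gene beside its paralogue eif4e2rs1. eif4e2 held 28.2% of the pair's RNA in mutant and 36.8% in sibling heads, and 12.2% and 11.6% of its footprints. The ratios of eif4e2rs1 were -0.24 in RNA (-0.43 to -0.04), 0.16 in footprints (-0.01 to 0.34) and 0.40 in translation efficiency (0.14 to 0.66). eif4e3 had the lowest translation efficiency ratio of the group (-0.10, -0.41 to 0.21), with 848 RNA counts in mutant and 725 in sibling heads and 347 footprint counts in mutant and 146 in sibling heads. eif4ea and eif4eb, the pair of genes for the canonical eIF4E, were lowly expressed beside eif4e1c (15.7 and 11.9 FPKM in mutant, 18.2 and 10.2 in sibling heads). eif4e1b had 1 RNA count in each genotype, and 2 footprint counts in mutant and 0 in sibling heads, which is no measurement.

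The 4E-BP genes, whose products compete with eIF4G for eIF4E and are switched off by mTOR, did not move as a group. eif4ebp2 had 5389 RNA counts in mutant and 4506 in sibling heads (109 and 106 FPKM), and 789 footprint counts in mutant and 274 in sibling heads (90.5 and 39.7 TPM). Its ratios were -0.04 in RNA (-0.09 to 0.02) and 0.11 in footprints (-0.09 to 0.31). eif4ebp1 had 1722 RNA counts in mutant and 1349 in sibling heads (0.06, -0.05 to 0.16), and 578 footprint counts in mutant and 149 in sibling heads (0.54, 0.28 to 0.81). The 2 genes of the 4E-BP3 type went opposite ways in RNA. eif4ebp3l had 778 RNA counts in mutant and 401 in sibling heads (0.66, 0.49 to 0.84), and 625 footprint counts in mutant and 247 in sibling heads (-0.08, -0.29 to 0.14, above 0 under total counts). Its translation efficiency ratio of -0.74 (-1.01 to -0.47) was -0.11 under total counts and above 0 under deposited FPKM and TPM (0.27). eif4ebp3 had 340 RNA counts in mutant and 337 in sibling heads (-0.28, -0.50 to -0.06), and 277 footprint counts in mutant and 86 in sibling heads (0.27, -0.08 to 0.64). The group and its medians also count eif4enif1, whose product is not a 4E-BP but the 4E-T protein that shuttles eIF4E. eif4enif1 had 477 RNA counts in mutant and 383 in sibling heads and 583 footprint counts in mutant and 245 in sibling heads, with neither ratio off 0 by counting error.

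The late factors eIF5 and eIF5B were on the higher side in both assays. eif5 had 6446 RNA counts in mutant and 3555 in sibling heads (179 and 115 FPKM), and 2453 footprint counts in mutant and 740 in sibling heads (79.1 and 31.4 TPM). Its ratios were 0.56 in RNA (0.51 to 0.62), 0.31 in footprints (0.19 to 0.43) and -0.25 in translation efficiency (-0.38 to -0.12, above 0 under total counts). eif5b had 2280 RNA counts in mutant and 1328 in sibling heads (0.49, 0.39 to 0.58), and 2375 footprint counts in mutant and 694 in sibling heads (0.36, 0.24 to 0.48). eIF5A, which carries the modified residue hypusine and also serves elongation, was the most abundant mRNA of the family. eif5a had 14850 RNA counts in mutant and 12028 in sibling heads (671 and 685 FPKM), and 3178 footprint counts in mutant and 873 in sibling heads (272 and 94.3 TPM), with ratios of 0.01 in RNA (-0.02 to 0.04) and 0.45 in footprints (0.34 to 0.56). eif5a2 had 6460 RNA counts in mutant and 6014 in sibling heads (-0.19, -0.24 to -0.14), and 4109 footprint counts in mutant and 1419 in sibling heads (0.12, 0.03 to 0.21).

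Paralogues offered a comparison that scaling cannot change, since the split of a pair's counts is taken within 1 library. Of 15 pairs, the split between mutant and sibling heads differed beyond counting error for 11 in RNA and for 5 in footprints. The shift was smaller in footprints for 10, and it had the same sign in both assays for 9. Pairs of other genes were not counted. For single genes, intervals lay above 0 for 28.3% and below 0 for 27.9% of all measured genes in RNA. In footprints these shares were 22.8% and 20.1%. The helicase pair was among those with a smaller shift in footprints. eif4a1a held 44.2% of the pair's RNA in mutant and 38.0% in sibling heads, and 64.7% of its footprints in mutant and 65.0% in sibling heads. For 4E-BP3, eif4ebp3 held 30.4% of the pair's RNA in mutant and 45.7% in sibling heads, and 30.7% of its footprints in mutant and 25.8% in sibling heads. eif3ja held 73.5% of the subunit j RNA in mutant and 65.3% in sibling heads, and 65.8% of its footprints in mutant and 63.4% in sibling heads.

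Some pairs shifted alike in both assays. eif1axa held 10.7% of the pair's RNA in mutant and 17.6% in sibling heads, and 16.6% of its footprints in mutant and 22.5% in sibling heads. eif5a held 69.7% of RNA in mutant and 66.7% in sibling heads, and 43.6% of footprints in mutant and 38.1% in sibling heads. The 2 genes of a pair thus also differed in how RNA relates to footprints in either genotype, as for eif5a, the major gene in RNA and the minor one in footprints. Pairs have fewer footprint than RNA counts in sibling heads, so that intervals are wider there, and no source used here says to which gene a read matching both paralogues was assigned. The eIF3b pair rests on an eif3bb RNA count under the minimum.

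**Figure D4:**
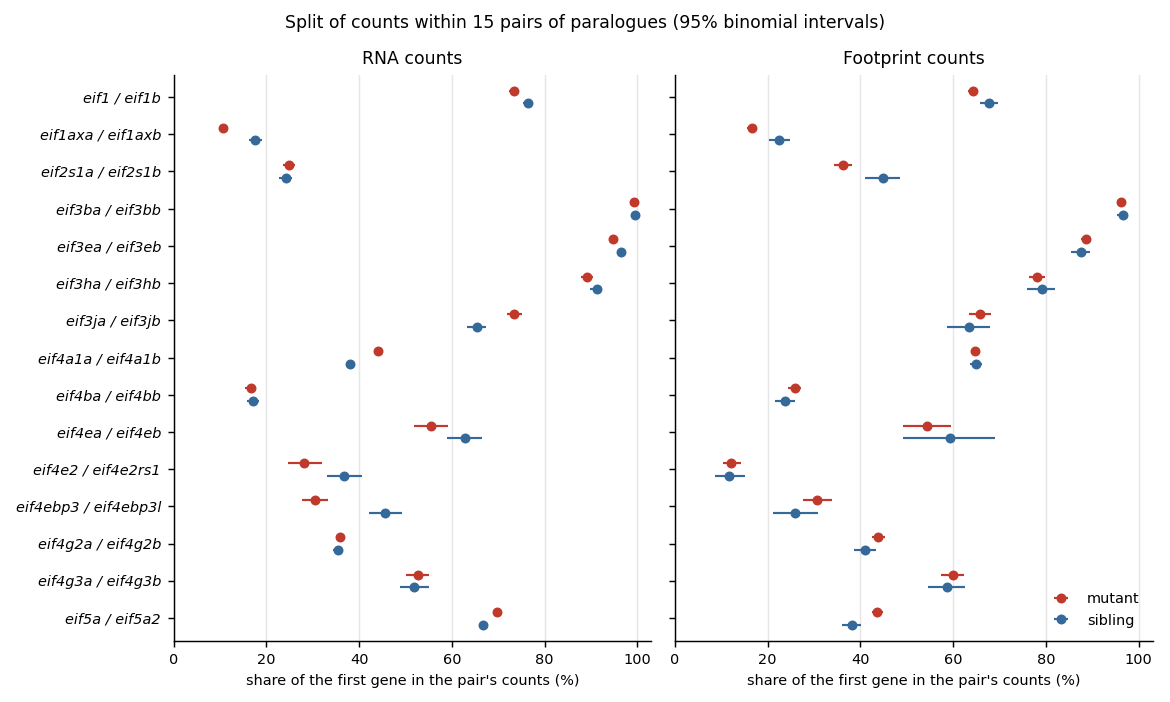
Share of the first-named gene in the summed counts of 15 pairs of paralogues (x axis, percent) in RNA (left) and footprints (right), for mutant (red) and sibling heads (blue), with 95% binomial intervals of the counts. In RNA the eif4a1a and eif4ebp3 shares differ between mutant and sibling heads (44.2% and 38.0%, 30.4% and 45.7%), while in footprints the intervals of both pairs overlap.

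Across the family, ratios lay closer together in footprints than in RNA. Over the 59 members measured in both, the standard deviation of the log2 ratios was 0.38 in RNA and 0.27 in footprints, and the interquartile range was 0.57 in RNA and 0.33 in footprints. For the other 14399 measured genes the standard deviation was 0.60 in both assays, and the interquartile range was 0.52 in RNA and 0.45 in footprints. For 19 cytosolic aminoacyl-tRNA synthetase genes the standard deviation was 0.39 in RNA and 0.20 in footprints. It was 0.36 and 0.51 for 80 ribosomal protein genes, and 0.33 and 0.32 for 11 elongation factor genes. A smaller spread in footprints was thus not particular to the initiation factors. Of the members, 39 of 59 were nearer to the family's own median in footprints than in RNA (66.1%, against 53.7% of the other measured genes). The groups were not alike in this. eIF3 had the smaller spread in footprints, whereas eIF4G (0.08 in RNA and 0.17 in footprints) and eIF4A (0.18 and 0.36) had the larger one there. For eIF4G the counting intervals were also wider in footprints. In sign, 27 members were above 0 in both assays, 21 below 0 in RNA and above 0 in footprints, 7 above 0 in RNA and below 0 in footprints, and 4 below 0 in both. Each assay taken alone, 50.9% of all measured genes were above 0 in RNA and 52.9% in footprints. Under total counts no member is below 0 in footprints, where the median of all measured genes is then 0.74.

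**Figure D5:**
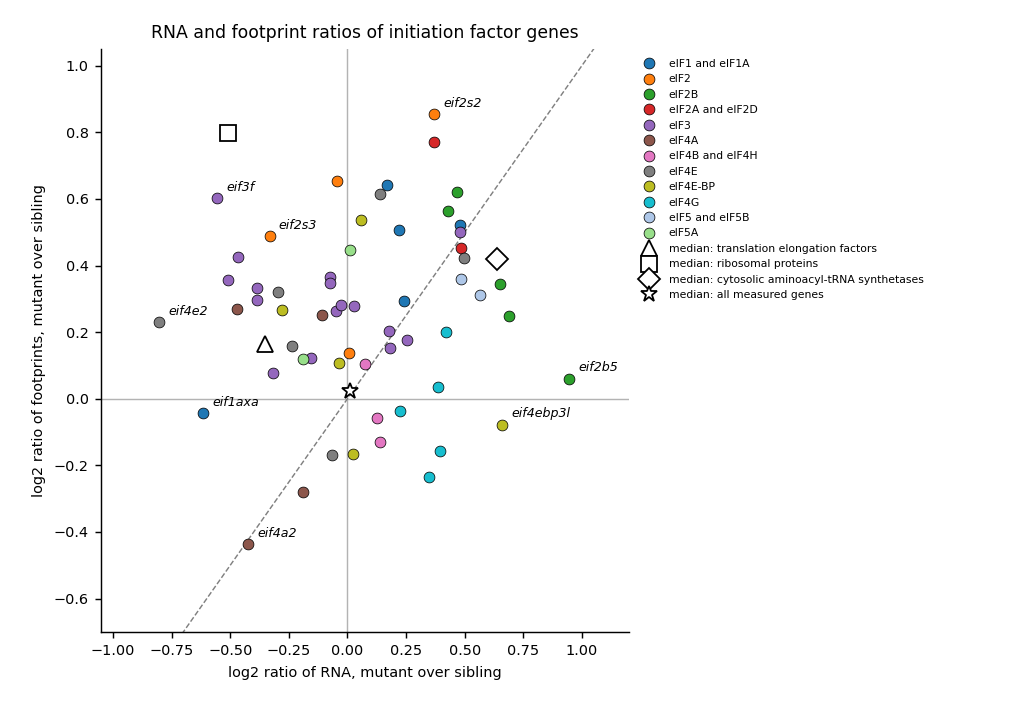
Log2 ratio of footprints (y axis) against log2 ratio of RNA (x axis), mutant over sibling, for the 59 initiation factor genes measured in both assays, coloured by group. Open symbols are medians of the comparison lists and of all genes, and the dashed line marks equal ratios, with translation efficiency above 0 to its upper left. Members of eIF2 and eIF3 lie mostly above the line and those of eIF4G below it (above it under total counts), and ribosomal protein genes have a median of -0.51 in RNA and 0.80 in footprints.

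The level of translation efficiency, apart from its change, was low for much of the family. It was taken per gene length, as footprint TPM over RNA FPKM, since the lengths behind the 2 units differ from gene to gene. Against all genes measured, 42 of 59 members lay under the median gene in mutant and 43 in sibling heads, and the median member stood at percentile 30.6 in mutant and 23.6 in sibling heads. eif4h stood highest, at percentile 95.1 in mutant and 96.8 in sibling heads. eif5a, the most abundant mRNA, stood at percentile 6.03 in mutant and 2.86 in sibling heads, and eif3m was lowest in sibling heads, at percentile 5.85 in mutant and 1.82 in sibling heads. The 4 eIF2 genes had a median percentile of 13.8 in mutant and 5.08 in sibling heads. eif3f stood at percentile 48.1 in mutant and 12.5 in sibling heads. eif4ebp2 stood at percentile 28.0 in mutant and 22.3 in sibling heads, but at 1.32 in mutant and 0.913 in sibling heads when plain CPM were used, so its place rests on the length.

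Beside other genes of translation, the initiation factors showed a mixed picture. The 80 ribosomal protein genes had median ratios of -0.51 in RNA, 0.80 in footprints and 1.26 in translation efficiency, with 69 of 80 at least 2-fold higher in the last. Elongation factor genes had medians of -0.35 in RNA (11 genes), 0.16 in footprints (12 genes) and 0.75 in translation efficiency (11 genes). The 19 cytosolic aminoacyl-tRNA synthetase genes had medians of 0.64 in RNA, 0.42 in footprints and -0.35 in translation efficiency (0.28 under total counts). The eIF2, eIF3, eIF4A, eIF4E and eIF5A genes had RNA medians below 0 and translation efficiency medians above 0. The ribosomal protein and elongation factor genes had these signs too. However, under total counts the RNA median was 0.06 for eIF2 and 0.01 for eIF3. The eIF2 RNA median of -0.02 had 2 of 4 genes above 0, and the summed RNA of eIF4E had a ratio of 0.08 (0.01 to 0.14). The eIF4A translation efficiency median of 0.17 had 2 of 4 genes above 0. The eIF5A RNA median of -0.09 had 1 of 2 genes above 0. eIF2B, eIF4G, eIF4B with eIF4H and eIF5 with eIF5B had the signs of the synthetase genes in RNA and translation efficiency. Their translation efficiency medians are above 0 under total counts, as is that of the synthetases. Opposite signs of these 2 ratios are in part built in, and footprints grouped otherwise. The footprint medians of eIF4G (-0.04), eIF4B with eIF4H (-0.06) and eIF4A (-0.01) were below 0 (above 0 under total counts). The summed footprints of eIF4A had a ratio of 0.13 (0.09 to 0.17). Footprint medians of the other groups named here and of the comparison lists were above 0. All these ratios come from the same 4 libraries, and no difference between groups was tested.

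Regulators and helpers of the initiation factors were looked at from a list of 33 genes, of which 31 were found and 29 measured in RNA and 27 in footprints. In none of the 3 comparisons was a measured one at least 2-fold higher or lower. Their medians were 0.13 in RNA, 0.10 in footprints and -0.04 in translation efficiency. eif6, which keeps the large subunit from joining too early and is known for its role in 60S maturation, had 1502 RNA counts in mutant and 795 in sibling heads (0.62, 0.50 to 0.75), and 1115 footprint counts in mutant and 354 in sibling heads (0.24, 0.07 to 0.42).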

How the data were processed

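RNA-seq and Ribo-seq of mutant and sibling heads gave 1 library each. Per the submitters' processing notes the authors used HISAT2 and featureCounts. Tool versions, build, annotation and the treatment of multi-mapping reads were not given in the sources used here, so no coordinates are printed. For Ribo-seq the study treated cells with cycloheximide, digested the lysate with RNase and took protected fragments from a sucrose gradient. The authors deposited estimated counts for each gene and library, beside FPKM for RNA-seq and TPM for Ribo-seq. The deposited estimated counts are not all whole and were rounded. The tables also hold the authors' log2 fold changes, p-values and FDR, which were not used, and 4 columns of values named as genotype means, which were left aside. A footprint row without gene ID (0.000746% of mutant and 0.00303% of sibling counts) was left out. The RNA-seq columns sum to 17394982 (mutant) and 15018459 (sibling) counts, the Ribo-seq columns to 19823803 (mutant) and 12180999 (sibling).

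TMM scaling factors came from edgeR 4.0.16 in R 4.3.3, and log2 ratios of mutant to sibling were taken after 0.5 counts were added. Genes needed 100 counts in the 2 genotypes together, and a ratio of 2 or more was counted as higher or lower. Ratios have exact conditional binomial intervals, translation efficiencies intervals built on Poisson errors of their 4 counts, and shares Clopper-Pearson intervals, all at 95% and for counting error only. Levels of subunits use deposited FPKM and TPM. The level of translation efficiency was planned from CPM, and the ratio of TPM to FPKM was added after seeing that both units rest on different lengths (relative to the median gene, 0.198 to 1.65 among members). Python 3.11.15 with numpy 2.4.6, pandas 2.3.3, scipy 1.17.1 and matplotlib 3.10.9 was used. The ratio and interval code was tested on simulated data.

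Members and lists were chosen with earlier results of these data known. Values in every library are given for members past 2-fold, for the member with the most RNA FPKM and those with the highest and lowest translation efficiency ratio in each of 12 groups, and for eIF2 and eIF4E-BP genes. Other members were named after their values were seen. eif6 and partner genes past 2-fold were to be named beside them. Alternatives were total counts, total counts without loci over 5% of a library, DESeq2 1.42.0 size factors, minima of 10 or 1 counts, 2 counts added, deposited FPKM and TPM with 1 added, and a ratio of 1.5. An analysis of pyrimidine-rich transcript starts was planned and not run, since no promoter sequences were used here.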

Additional observations from a re-analysis of the deposited data

How the results depend on the processing

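With 1 library per genotype and assay, leaving out a replicate was not possible and no test could be made. Under DESeq2 size factors, a minimum of 10 counts or none beyond 1 count, the numbers of initiation factor genes past 2-fold were as reported, and the median RNA ratio was between 0.06 and 0.07. Under total counts per library the median log2 ratio over the members was 0.98 in footprints and 0.79 in translation efficiency, with 1 member past 2-fold in RNA, 27 in footprints and 22 in translation efficiency, while 22.1% of all measured genes were then higher in footprints and 20.0% in translation efficiency. Under deposited FPKM and TPM the medians were 1.30 in footprints and 1.06 in translation efficiency, with 50 and 35 members past 2-fold (44.6% and 36.4% of all measured genes higher). With the loci holding over 5% of a library left out, total counts gave 1 member past 2-fold, higher, in RNA (3.88% of all measured genes higher and 5.54% lower) and 1 in translation efficiency (3.09% and 3.68%), and adding 2 counts gave 1 in translation efficiency (3.39% and 3.22%). At a ratio of 1.5 or more there were 6 members in RNA, 7 in footprints and 12 in translation efficiency. Median translation efficiency ratios under total counts were 1.22 for eIF2, 0.33 for eIF2B, 0.98 for eIF3 and 0.78 for eIF4E-BP genes with eif4enif1. Total counts move every gene of an assay together. Deposited values were taken with 1 added, which shrinks the ratios of genes at low levels. For eif2d (4.77 TPM in mutant and 1.31 in sibling heads) the footprint ratio was then 1.32, reported as 0.77. For eif2s2, at higher levels, it was 1.91, reported as 0.86. Among the 35 genes named by rule, 14 had the other sign in translation efficiency, 8 in footprints and 3 in RNA under total counts, and 16, 8 and 4 under deposited values. Without the abundant loci, 3 had the other sign in translation efficiency and 3 in RNA. The smaller spread in footprints than in RNA was also seen with a minimum of 1000 counts, which left 38 members (0.35 in RNA and 0.24 in footprints), and with deposited FPKM and TPM (0.37 and 0.27), both chosen after seeing the data. Taking each paralogue alone raised the spread of eIF3 levels to 1.94 in mutant and 2.18 in sibling RNA, and to 1.54 in mutant and 1.47 in sibling footprints. Depth limits eif3bb, eif4eb, eif2d and eif4e2 most among measured genes, with 38 to 46 footprint counts in sibling heads. The planned analysis of pyrimidine-rich transcript starts was not run.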
